A study of Homo sapiens with 2 samples.

Results

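NRF2 is the transcription factor encoded by NFE2L2, and the 10 genes described here are NFE2L2 itself, its inhibitor KEAP1 and the NRF2 targets NQO1, GCLC, GCLM, TXNRD1, SRXN1, HMOX1, ME1 and OSGIN1. They were represented by every probe set that the platform annotation paired with exactly 1 of these genes, which gave 21 of the 54675 probe sets of an array. In all 19775 genes had such a probe set, so these are 10 of 19775. In resting cells KEAP1 holds NRF2 and hands it to a CUL3 ubiquitin ligase for destruction. Oxidants and electrophiles block that step, and NRF2 then pairs with a small MAF protein on antioxidant response elements and switches on genes for glutathione, thioredoxin, quinone and heme handling. In esophageal squamous carcinoma the pathway is known to be switched on in some tumours by mutation of NFE2L2 or KEAP1. The state of either gene in this line was not analysed here.

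The SOX17 array held RNA from KYSE170-luc cells 12 h after it was transfected with a plasmid for SOX17, a SOX family transcription factor. The empty vector array held RNA from the same line 12 h after transfection with the vector alone. KYSE170-luc is an established human esophageal squamous carcinoma line, and luc stands for luciferase, which both groups therefore share. There was 1 array per group, so every difference below lies between 2 arrays, the number of arrays limits its precision, and no p-value was computed. How many of the cells took up DNA is not stated in the labels. In RNA from a whole plate, fewer cells that express a gene and less RNA per cell cannot be told apart.

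The question was whether NRF2, KEAP1 or the NRF2 targets differed between SOX17 and empty vector cells. HMOX1, which encodes the enzyme that breaks down heme, was 1.94-fold higher on the SOX17 array and lay farthest from equality of the 9 genes that could be measured. By the brightest probe set of each gene, the other 8 lay between -0.26 and 0.24 on the log2 scale, at most 1.20-fold from equality. NQO1, GCLM and KEAP1 were on the higher side and NFE2L2, GCLC, TXNRD1, SRXN1 and ME1 on the lower side. GCLM was mixed, with 0.19 on its brightest probe set and -0.25 and -0.58 on its others. OSGIN1 was too dim to be measured.

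A gene counted as measured when its brightest probe set lay at or above an intensity of 95 on both arrays, a floor set at the 60th percentile of all values. None of the 9 measured genes passed 2-fold, the size taken as a call, in either direction, where 0.419% of all 10034 measured genes passed it upward and 0.329% downward. At 1.5-fold 1 gene was higher, HMOX1, and 0 were lower, and the shares over all measured genes were 3.78% and 3.19% at that size. The ratio was above 0 for 4 of the 9 and below 0 for 5, against 54.6% above and 45.4% below over all measured genes. The median log2 ratio of the 9 was -0.11, and that of all measured genes 0.03. Their median distance from 0, 0.19, was the same as that of all measured genes (0.19). These comparisons were not matched for intensity. Of the 9 genes, 7 lay in the highest tertile of intensity of the measured genes, where the error given below was smallest.

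With no replicate array, the error of a ratio was taken from pairs of probe sets of 1 gene. Over 4574 genes it came to an SD of 0.27 on the log2 scale, and it was 0.35 in the lowest tertile of intensity of the measured genes, 0.26 in the middle tertile and 0.17 in the highest. This error leaves out the spread between cultures. By the probe set that stands for each of the 9 measured genes, 8 lay within 1.5 SD of 0, and HMOX1 lay 2.71 SD from 0. The SD used for HMOX1 is 1 value for all mean intensities below 492. The error rose as intensity fell, so this SD may be too small for a gene as dim as HMOX1.

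**Figure D1:**
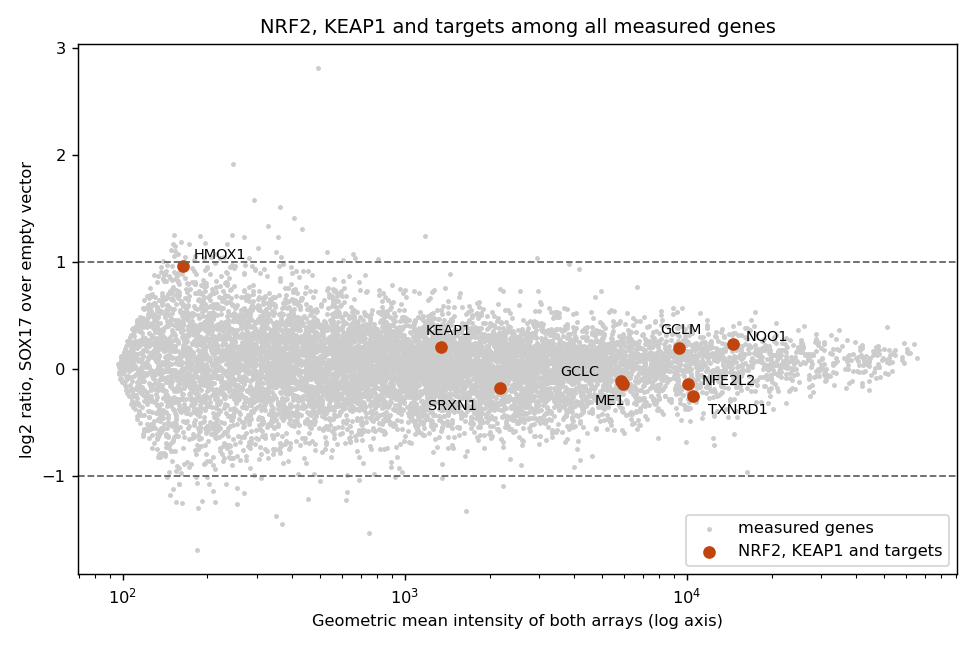
The log2 ratio of the SOX17 over the empty vector array (vertical) against the geometric mean intensity of both arrays (horizontal, log axis) for each of 10034 measured genes in grey, with the 9 measured genes of the NRF2 group in orange and dashed lines at 2-fold. HMOX1 lies at 0.96 at the dim end, and the other 8 lie between -0.26 and 0.24 within the grey band.

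The antioxidant response element has the core TGACNNNGC, and SOX proteins bind the core ACAAT. Both were searched on both strands in RefSeq promoter windows on build GRCh38.p14, each from 250 bases before to 50 bases after a gene's start, of which 12 belonged to 9 of the 10 genes (HMOX1 had no entry). The response element core was found in 5 of these 12 windows, those of KEAP1, GCLM, TXNRD1 and ME1, against 13.3% of all 35116 windows. The windows of the target genes among them are printed because they show where the element lies in genes of the pathway whose ratios are given below. GCLM, at chr1:93909381-93909680 on the minus strand, holds it 34 bases before the start. TXNRD1 has 2 windows with it on the plus strand, 1 at chr12:104215529-104215828 (starting 99 and 8 bases before the start) and 1 at chr12:104286782-104287081 (102 bases before the start). ME1, at chr6:83431002-83431301 on the minus strand, holds it 137 bases before and 11 bases after the start, and the first of these also contains the AP-1 site TGACTCA. Capitals mark the core, which reads as its reverse complement (from GC to GTCA) where it lies on the opposite strand, and each sequence runs 5′ to 3′ along the gene.
GCLM: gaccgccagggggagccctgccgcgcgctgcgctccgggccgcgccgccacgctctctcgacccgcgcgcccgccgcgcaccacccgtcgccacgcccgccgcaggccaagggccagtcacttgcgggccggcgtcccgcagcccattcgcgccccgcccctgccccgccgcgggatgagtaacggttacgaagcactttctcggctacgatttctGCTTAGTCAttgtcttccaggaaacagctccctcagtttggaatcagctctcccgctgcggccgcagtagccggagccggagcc
TXNRD1, first window: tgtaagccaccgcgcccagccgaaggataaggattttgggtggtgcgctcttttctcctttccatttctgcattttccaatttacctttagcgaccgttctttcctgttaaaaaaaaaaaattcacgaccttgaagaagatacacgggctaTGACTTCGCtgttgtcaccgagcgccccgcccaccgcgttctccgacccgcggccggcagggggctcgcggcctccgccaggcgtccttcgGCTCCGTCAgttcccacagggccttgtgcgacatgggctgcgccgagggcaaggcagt
TXNRD1, second window: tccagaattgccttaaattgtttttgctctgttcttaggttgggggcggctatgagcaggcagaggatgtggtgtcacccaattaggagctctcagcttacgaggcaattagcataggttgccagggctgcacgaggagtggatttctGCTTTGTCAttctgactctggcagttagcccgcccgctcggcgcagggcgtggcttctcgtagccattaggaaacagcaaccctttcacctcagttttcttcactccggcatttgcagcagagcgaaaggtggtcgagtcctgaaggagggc
ME1: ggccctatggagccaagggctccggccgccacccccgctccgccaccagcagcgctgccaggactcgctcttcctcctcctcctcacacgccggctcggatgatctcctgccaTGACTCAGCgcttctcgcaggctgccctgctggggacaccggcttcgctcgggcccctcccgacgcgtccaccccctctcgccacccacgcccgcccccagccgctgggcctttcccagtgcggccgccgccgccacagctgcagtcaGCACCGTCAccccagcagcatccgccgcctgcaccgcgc
The SOX core ACAAT was found in 4 of the 12 windows, those of KEAP1, NQO1, GCLM and the second of TXNRD1, against 27.4% of all windows. In GCLM and KEAP1 it shares 1 base with the response element core. These are matches of letters, not binding sites, and windows without a match may hold elements farther from the start.

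**Figure D2:**
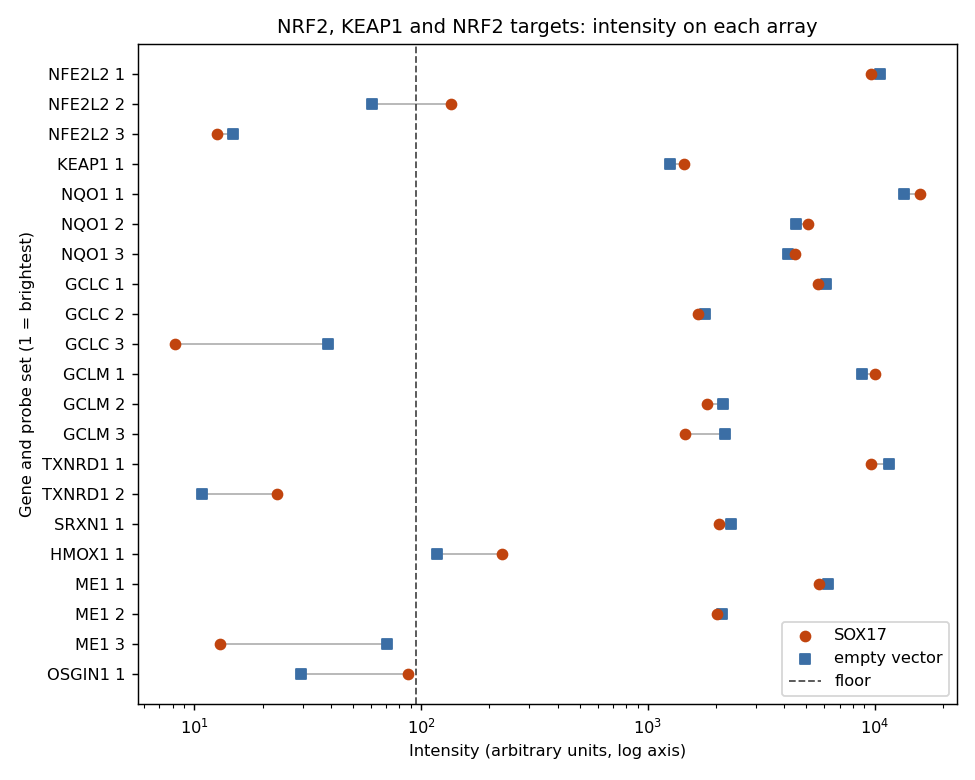
Intensity (horizontal, log axis, arbitrary units) of each of the 21 probe sets on the SOX17 array (orange circles) and the empty vector array (blue squares), numbered within a gene from the brightest, with the floor of 95 as a dashed line. The wide gaps lie among dim probe sets, and the bright ones nearly coincide.

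NFE2L2 and KEAP1 set the activity of the pathway, and neither transcript differed by much. The brightest NFE2L2 probe set read 9614.7 on the SOX17 array and 10577.4 on the empty vector array, a log2 ratio of -0.14. A distance from 0 at least as large was found for 54.3% of the measured genes in the same tertile of intensity. A further NFE2L2 probe set read 135.8 on the SOX17 array and 60.8 on the empty vector array, so it crossed the floor on the SOX17 array only, and another read 12.6 on the SOX17 array and 14.8 on the empty vector array. Both of these are far dimmer than the first, and no fold is given for them. KEAP1, the sensor that marks NRF2 for destruction, had 1 probe set, which read 1437 on the SOX17 array and 1251 on the empty vector array (log2 ratio 0.20). Its distance from 0 was matched or passed by 47.4% of genes in its tertile. Much of the control of NRF2 lies in the stability of the protein, which these arrays do not measure.

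NQO1, the quinone reductase that is the usual reporter of NRF2 activity, was slightly higher on the SOX17 array on each of its 3 probe sets. They read 15883.4, 5073.3 and 4432.6 on the SOX17 array, against 13492.9, 4508.6 and 4137 on the empty vector array. Their log2 ratios were 0.24, 0.17 and 0.10, a range of 0.14. Of the 1185 genes with 3 measured probe sets, 91.9% had as wide a range or a wider one. That share was taken over genes of all intensities, and all 3 NQO1 probe sets lay in the highest tertile, where the error was smallest. Ratios at least as far from 0 as that of the brightest were found for 29.9% of genes in its tertile. The difference of 1.18-fold was 1.35 SD of a ratio.

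GCLC and GCLM encode the catalytic and the modifier subunit of glutamate-cysteine ligase, which makes the first intermediate of glutathione. GCLC read 5639.2 and 1664.9 on its 2 measured probe sets on the SOX17 array and 6097.8 and 1787 on the empty vector array, with log2 ratios of -0.11 and -0.10. Its dimmest probe set read 8.2 on the SOX17 array and 39 on the empty vector array, below the floor on both. GCLM gave no single direction. Its brightest probe set read 10023.3 on the SOX17 array and 8771.8 on the empty vector array (log2 ratio 0.19). The second read 1814.4 on the SOX17 array and 2150.5 on the empty vector array (-0.25). The third read 1459 on the SOX17 array and 2179.9 on the empty vector array (-0.58, or 1.49-fold lower), and 4.93% of genes in its tertile lay as far from 0. The range over the GCLM probe sets was 0.77, and 15.5% of genes with 3 measured probe sets, at any intensity, had one as wide. The mean over the 3 was -0.21, so the sign of GCLM depends on whether the brightest probe set or the mean stands for the gene. Of the 4 genes with several measured probe sets, the other 3 kept 1 sign on all of them.

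TXNRD1, which reduces thioredoxin, and SRXN1, which repairs oxidised peroxiredoxins, were both slightly lower on the SOX17 array. TXNRD1 read 9648.4 on the SOX17 array and 11535.2 on the empty vector array, a log2 ratio of -0.26 (1.20-fold lower) and 1.47 SD from 0. This was the lowest ratio of the 9, and 25.9% of genes in its tertile lay as far from 0. Its other probe set, at 23.2 on the SOX17 array and 10.8 on the empty vector array, was below the floor on both. SRXN1 had 1 probe set, at 2054.5 on the SOX17 array and 2328.6 on the empty vector array (-0.18, as far from 0 in 42.4% of genes). ME1, the cytosolic malic enzyme that supplies NADPH, read 5683.8 and 2013.5 on the SOX17 array and 6250.4 and 2126.5 on the empty vector array on its 2 measured probe sets. Both ratios, -0.14 and -0.08, were within 1 SD of 0. The third ME1 probe set read 13 on the SOX17 array and 70.6 on the empty vector array, again below the floor on both.

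**Figure D3:**
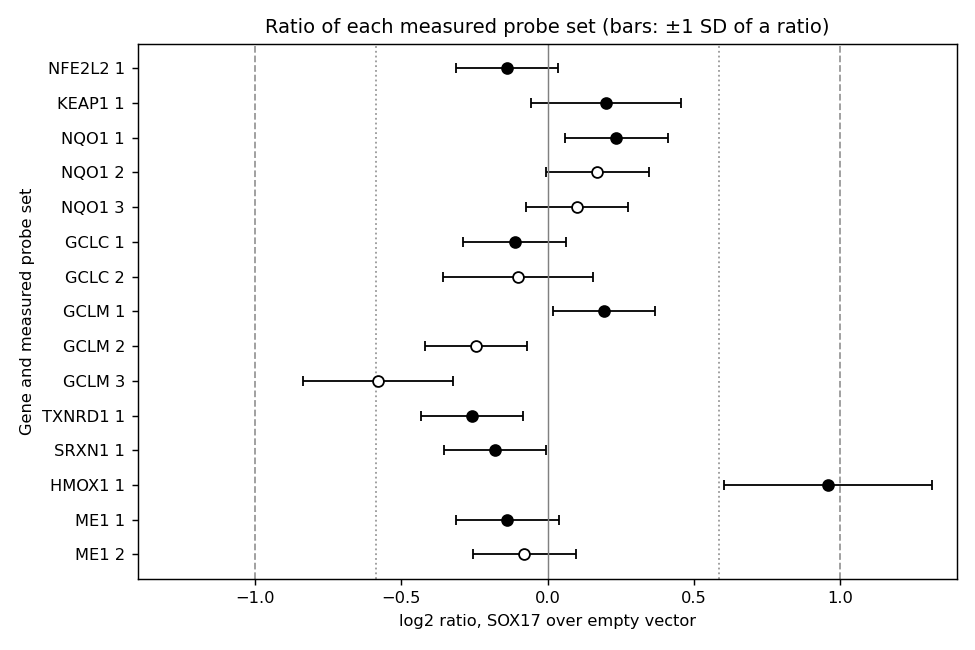
The log2 ratio of the SOX17 over the empty vector array for each of the 15 measured probe sets. Filled points stand for the gene, open points are its other probe sets, bars are ±1 SD of a ratio in that tertile of intensity, dotted lines mark 1.5-fold and dashed lines 2-fold. The GCLM points spread from -0.58 to 0.19, and HMOX1 lies at 0.96.

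HMOX1 and OSGIN1 were the dimmest genes of the group, and of these only HMOX1 could be measured. HMOX1 had 1 probe set, which read 227.9 on the SOX17 array and 117.3 on the empty vector array. Its log2 ratio was 0.96, and of the 3345 genes in the lowest tertile 75 (2.24%), HMOX1 included, had a ratio at least as far from 0. Like the SD, this share is 1 value for all mean intensities below 492 and may differ for genes as dim as HMOX1. The empty vector value lay close to the floor of 95, which limits how far genes this dim can differ and still be measured on both arrays. No other probe set bears on HMOX1, so the ratio has no check within the arrays. OSGIN1, an oxidative stress-induced growth inhibitor, read 87.2 on the SOX17 array and 29.6 on the empty vector array on its 1 probe set. Both values were under the floor, and no fold is given.

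The dim probe sets of the group did not run one way, but they are too few to show whether dim values as a whole were shifted. The median intensity of all probe sets was 60.4 on the SOX17 array and 55 on the empty vector array. With no floor, 11160 genes lay above 0 and 8580 below. Of the 6 probe sets that were not measured, those of OSGIN1 and TXNRD1 and the second of NFE2L2 read higher on the SOX17 array, and those of GCLC and ME1 and the third of NFE2L2 read lower. All 24 probe sets for poly-A control transcripts, which are spiked into RNA ahead of labelling, were brighter on the SOX17 array, by a median of 0.57 on the log2 scale. Of the 18 hybridisation control probe sets, whose transcripts are added after labelling, 15 were brighter there, with a median of 0.11. The floor was not applied to either set of controls, so dim probe sets among them were not left out. The part of these controls' differences in the HMOX1 ratio was not tested. With quantile normalization, which gives both arrays the same median intensity, the HMOX1 log2 ratio was 0.94, against 0.96 as deposited. SOX17 itself read 83.8 and 6.5 on its 2 probe sets on the SOX17 array and 4.5 and 19.1 on the empty vector array, all under the floor, so the arrays do not check the labels. Epithelial markers were present, with all 5 that had a probe set of their own measured. Of 14 fibroblast, leukocyte and endothelial markers COL1A1 was measured, at 845.1 on the SOX17 array and 780.2 on the empty vector array, and the other 13 were below the floor on both.

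Around these genes, 5 lists of other genes around NRF2, written from general knowledge of the pathway, held 64 measured genes. A place in a list does not make a gene an NRF2 target. None passed 2-fold, 4 were higher by 1.5-fold or more and 1 was lower by as much, beside 3.78% and 3.19% of all measured genes. Among regulators, 5 of 13 lay above 0 and 8 below, with a median log2 ratio of -0.13. BACH1 is a repressor that competes with NRF2 on response elements and is known to hold HMOX1 down. It read 628.6 on the SOX17 array and 1056.8 on the empty vector array (1.68-fold lower, 1 measured probe set). Any part of BACH1 in the HMOX1 ratio was not tested. MAFF, a small MAF protein that pairs with NRF2 and BACH1, read 4302.6 on the SOX17 array and 6362.9 on the empty vector array (-0.56, and -0.33 on its other probe set). BTRC, a ubiquitin ligase subunit that can also mark NRF2, was 1.51-fold higher, but its 3 measured probe sets ran from -0.37 to 0.86.

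Of 15 measured genes of detoxification, heme and iron, 13 lay above 0, and 2 were at least 1.5-fold higher and 0 at least 1.5-fold lower, with a median of 0.30. Over all measured genes 54.6% lay above 0, 3.78% were higher and 3.19% lower by that size, and the median was 0.03. With _x_at and _s_at probe sets left out, 8 of the list were measured, 6 of them above 0. BLVRA, PTGR1 and AKR1C1, named after their values were seen, had measured probe sets of both signs, with ranges of -0.22 to 0.39 for BLVRA, -0.13 to 0.22 for PTGR1 and -0.18 to 0.16 for AKR1C1. AKR1C3, an aldo-keto reductase, read 2830.4 on the SOX17 array and 1686.5 on the empty vector array (1.68-fold higher). Its close relatives AKR1C1 and AKR1C2, named after their values were seen, had log2 ratios of 0.16 and 0.21, and probes of this family may cross-hybridise. The carbonyl reductase CBR3 read 684.5 on the SOX17 array and 422.4 on the empty vector array (1.62-fold higher), and it and AKR1C3 each rest on 1 measured probe set. The heme transporter SLC48A1 had a log2 ratio of 0.49, and 0.43 on its other measured probe set.

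The glutathione list had 9 of 16 measured genes above 0 and a median of 0.08. The glutathione peroxidase GPX4, which reduces lipid peroxides, had a log2 ratio of 0.54, and the transferase GSTO1 of 0.40. SLC7A11, the cystine importer that feeds glutathione synthesis, lay at -0.44, with 3 measured probe sets from -0.44 to 0.32. Of the thioredoxin and peroxide list 8 of 13 lay above 0 (median 0.14). The mitochondrial thioredoxin TXN2 was 1.55-fold higher, with 0.63 and 0.47 on its 2 probe sets. Catalase (CAT, 0.43) and the peroxiredoxin PRDX2 (0.33) each had probe sets of both signs, down to -0.38 and -0.91. Of the NADPH list 4 of 7 lay above 0 (median 0.10), with the NADPH-forming isocitrate dehydrogenase IDH1 at 0.52 (0.82 on its other probe set), PGLS of the pentose phosphate pathway at 0.30 (0.61 on its other probe set) and the transhydrogenase NNT at -0.17 (0.02 on its other probe set). IDH2, named after its values were seen, read 55.2 on the SOX17 array and 222.7 on the empty vector array, so against the floor it was at least 2.34-fold lower. Genes with such a bound were not counted over the arrays, so no share stands beside it. Other genes of the lists that were not measured lay on both sides. Among them, also named after their values were seen, EPHX1 read 110.1 on the SOX17 array and 19.8 on the empty vector array, and ME3 read 53.1 and 88.4.

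**Figure D4:**
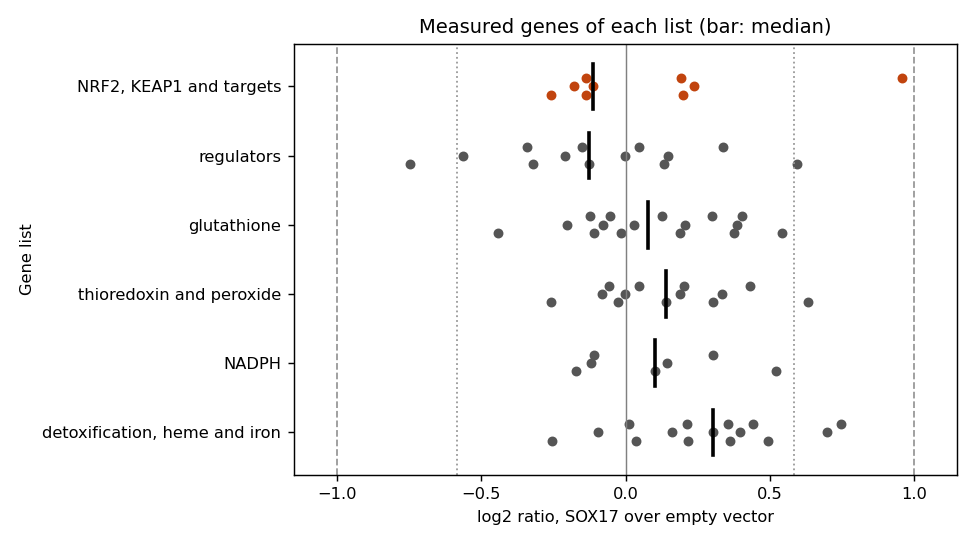
The log2 ratio of the SOX17 over the empty vector array for each measured gene of the NRF2 group (9 genes, orange) and of the 5 further lists (grey), with the median of each list as a black bar, dotted lines at 1.5-fold and dashed lines at 2-fold. The medians run from -0.13 for regulators to 0.30 for detoxification, heme and iron, and no point passes 2-fold.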

How the data were processed

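Gene expression was measured on Affymetrix arrays, 1 for SOX17 and 1 for empty vector cells. The authors deposited a linear intensity for each probe set, computed in GCOS per the submitters' processing notes. The labels and the table give no algorithm, settings, version or detection calls. With 2% of values trimmed from each end, both arrays had a mean of 499.9, so by the values a common scaling had been applied, and the intensities were used as deposited. Genes were named through GEO's platform annotation, with probe sets of several genes left out, and all 21 probe sets matched a current RefSeq gene ID with 0 symbols to update.

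The brightest probe set by mean log2 value stood for a gene. Ratios are SOX17 over empty vector on the log2 scale. Error is the SD of the difference between the 2 brightest measured probe sets of a gene, divided by the square root of 2. A bound is the brighter value over the floor, where it reached 2 times the floor and the other value lay below it. Named are all 10 genes, SOX17, and from each further list every gene at 1.5-fold and in any case the 3 with the largest ratios. The genes and lists were chosen with earlier results of these data known. With 1 array per group no test was made. The alternatives were median centring, quantile normalization, loess (span 0.4), no floor or one at the 50th or 75th percentile, averaging the probe sets of a gene, and leaving out IDs ending in _x_at or _s_at. Scripts in Python 3.11.15 with numpy 2.4.6, pandas 2.3.3, statsmodels 0.14.6 and matplotlib 3.10.9 were tested on simulated data.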

Additional observations from a re-analysis of the deposited data

How the results depend on the processing

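Under 8 alternatives, 69 of 70 values of the measured NRF2 group genes kept their sign, and the exception was GCLM at -0.21 with the mean over probe sets. Many of these signs could not change. The floor settings decide only which genes are measured and leave each ratio as it was. Averaging cannot move the 5 genes with 1 measured probe set, and leaving out IDs moves only genes that such an ID stood for. HMOX1 stayed between 0.94 and 0.96 wherever it was measured, always on its 1 probe set, so only the scaling of the arrays could move it. NQO1 has no value without IDs ending in _x_at or _s_at, since all of its probe sets end so. With a floor at the 75th percentile HMOX1 was not measured, and 0 of the group were then at least 1.5-fold higher. With no floor OSGIN1 was counted, although both of its values are too dim for a fold to be given, which made 2 at least 1.5-fold higher and 1 at least 2-fold higher and put the median of the group at 0.0398 on the log2 scale. The error of a ratio was 0.21 with the floor at the 75th percentile and 0.23 from the median absolute deviation. Over all genes, 125 were at least 2-fold higher and 82 at least 2-fold lower with the floor at the 50th percentile, 7 and 9 at the 75th and 2811 and 1874 with no floor, against 42 and 33 here. At 1.5-fold the counts higher and lower were 670 and 477, 108 and 135, and 4238 and 2880 in the same order of floors, against 379 and 320 here. Among the further lists, TXN2 fell short of 1.5-fold with the mean over probe sets, which left 0 of its list past that size, IDH1 passed it with that mean, and BTRC was not measured with the floor at the 75th percentile. Without IDs ending in _x_at or _s_at, 1 gene of the NADPH list was at least 1.5-fold higher (0 otherwise), 6 of 8 detoxification, heme and iron genes lay above 0 (13 of 15), and 5 of 8 regulators (8 of 13) and 2 of 9 thioredoxin and peroxide genes (5 of 13) lay below 0. No paired analysis was possible because each group had 1 array. For the same reason no array could be left out.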

Other observations

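One probe set was paired with both NFE2L2 and CSNK2A1 and was left out of the counts. It read 208.2 on the SOX17 array and 188 on the empty vector array, a log2 ratio of 0.15.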
